A study of Mus musculus with 32 samples.

Results

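The genes described here are the 9 that write, copy, erase and read methylation of cytosine at CpG sites: Dnmt1, Dnmt3a, Dnmt3b, Uhrf1, Uhrf2, Tet1, Tet2, Tet3 and Mbd2. They were chosen by their known roles, with earlier results of these data known. All 9 were found among the 54429 gene symbols of the count table. Their transcripts were followed by bulk RNA-seq in Veravec, a line of mouse lung endothelial cells (ECs), transfected with a control siRNA (si-control) or with siRNA against Dnmt1 (si-dnmt). Each siRNA was combined with 4 cytokine states, which were no cytokine, TNF (TNFα, 10 ng/mL), IFN (IFNγ, 1000 U/mL) and TNF + IFN, given for 16 h. The 8 groups (si-control, si-control + TNF, si-control + IFN, si-control + TNF + IFN, si-dnmt, si-dnmt + TNF, si-dnmt + IFN and si-dnmt + TNF + IFN) held 4 libraries each, 32 in all. All cells were of 1 line and all passed through transfection, and the study's methods list a pair of Dnmt1 siRNA sequences without saying which library received which. RNA was measured, and methylation of DNA was not.

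In vertebrate DNA, Dnmt1 copies the methylation pattern onto the new strand after replication, and Uhrf1 guides it there by binding hemimethylated CpG sites and ubiquitinating histone H3. Dnmt3a and Dnmt3b set new methylation without a template. The TET enzymes oxidise 5-methylcytosine, which starts its removal, and Mbd2 binds methylated CpG sites and recruits the NuRD repressor complex. In ECs this machinery is studied for its part in silencing inflammatory and shear-responsive genes.

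Total counts per library ran from 17362546 to 33500030. In every group replicates 1 and 2 stood apart from replicates 3 and 4 in many genes, the members among them, and neither the labels nor the methods say what separates these sets, so values are also given within each set. A fit of 1 set alone measures the spread within that set, and its SE and p-value leave out the variation between the sets. All 10 endothelial markers examined were expressed, with a summed level of 3523 to 9362 CPM (counts per 1000000 after TMM scaling). Of 6 leukocyte markers 1 passed the filter on low counts, Cd68, which made up nearly all of their sum of 49.1 to 214 CPM, while Ptprc did not exceed 0.134 CPM and Cd3e was at 0 in all libraries. Of 5 epithelial markers Krt18 alone passed and made up nearly all of their sum of 3.70 to 22.6 CPM, while Epcam did not exceed 0.185 CPM. Of 5 fibroblast markers 4 passed, and Lum did not exceed 0.141 CPM. Their sum was lower in si-dnmt, at 17.5 to 34.4 CPM against 43.0 to 80.4 CPM in si-control without cytokine and 10.8 to 17.8 against 22.5 to 38.2 CPM with IFN, mostly as Col3a1. It overlapped between the siRNAs with TNF (13.7 to 33.3 against 17.8 to 60.9 CPM) and TNF + IFN (10.7 to 25.6 against 23.1 to 35.4 CPM). The single markers did not all follow the sum. Of the 4 tested, 3 had a positive log2 fold change with si-dnmt without cytokine, 1 with TNF, 3 with IFN and 2 with TNF + IFN. The sum of 5 pericyte and smooth muscle markers was 39.3 to 183 CPM in si-dnmt against 7.69 to 26.5 CPM in si-control without cytokine. It was 66.2 to 143 against 9.52 to 28.7 CPM with TNF and 84.0 to 230 against 20.9 to 69.4 CPM with IFN. With TNF + IFN it overlapped between the siRNAs, at 59.1 to 133 against 18.7 to 64.7 CPM. Nearly all of this sum was Acta2, while the pericyte markers Rgs5 and Cspg4 did not exceed 0.0545 and 0.174 CPM. Of these 5 markers 3 passed the filter. With si-dnmt 2 of the 3 were called higher without cytokine, 1 with TNF, 1 with IFN and 0 with TNF + IFN. These stand beside 9.58%, 10.4%, 10.8% and 8.97% of all genes, and 0 of the 3 were called lower. The part of these shifts in the results below was not tested. In bulk RNA, fewer cells of a type and less RNA per cell cannot be told apart.

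CpG sites are what these proteins act on, and the promoters of their own genes hold many of them. Of the 9 genes, 8 had an entry among 32851 RefSeq windows of 300 bases (GRCm38.p6, 250 bases before and 50 after a start site). All windows had a median of 7 CpG sites. The start site with the most CpG sites held 57 in Tet2, 47 in Dnmt3a, 33 in Dnmt1, 33 in Uhrf1, 30 in Dnmt3b, 28 in Uhrf2, 22 in Tet3 and 17 in Tet1. The 250 bases before that start site are shown for the 4 genes whose transcripts changed most between groups, 5′ to 3′ on the strand of the gene, with each CpG in capitals. They lie at chr9:20952624-20952873 on the minus strand for Dnmt1, and on the plus strand at chr12:3806910-3807159 for Dnmt3a, chr2:153649199-153649448 for Dnmt3b and chr17:56304063-56304312 for Uhrf1. The Dnmt1 stretch belongs to the last of 3 start sites. It lies downstream of the other Dnmt1 start sites, whose windows held 2 and 12 CpG sites, and so within the gene as started from those.
Dnmt1: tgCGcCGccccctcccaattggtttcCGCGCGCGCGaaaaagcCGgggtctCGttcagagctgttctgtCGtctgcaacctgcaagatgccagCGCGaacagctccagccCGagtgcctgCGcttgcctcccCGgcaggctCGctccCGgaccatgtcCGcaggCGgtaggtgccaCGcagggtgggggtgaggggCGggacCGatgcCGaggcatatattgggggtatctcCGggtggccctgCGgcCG
Dnmt3a: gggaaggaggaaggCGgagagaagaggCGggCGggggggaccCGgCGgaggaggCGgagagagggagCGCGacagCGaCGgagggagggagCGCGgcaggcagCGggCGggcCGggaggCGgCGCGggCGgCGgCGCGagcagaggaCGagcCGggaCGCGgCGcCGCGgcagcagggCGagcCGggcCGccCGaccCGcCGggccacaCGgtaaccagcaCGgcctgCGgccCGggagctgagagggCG
Dnmt3b: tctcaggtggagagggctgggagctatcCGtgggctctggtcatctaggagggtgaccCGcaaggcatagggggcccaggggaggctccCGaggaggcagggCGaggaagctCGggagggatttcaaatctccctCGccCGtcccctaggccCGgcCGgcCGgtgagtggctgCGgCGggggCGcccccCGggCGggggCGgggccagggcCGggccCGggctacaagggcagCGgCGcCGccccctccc
Uhrf1: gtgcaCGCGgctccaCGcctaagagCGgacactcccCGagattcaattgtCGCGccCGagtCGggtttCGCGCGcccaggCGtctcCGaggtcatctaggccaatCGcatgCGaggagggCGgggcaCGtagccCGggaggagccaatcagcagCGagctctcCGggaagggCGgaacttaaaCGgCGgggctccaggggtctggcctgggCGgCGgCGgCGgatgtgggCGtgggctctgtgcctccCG

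Both strands of the 300-base windows were searched for 4 motifs. The E2F site, spelled TTTCCCGC or TTTGGCGC, occurred in 1.56% of all windows, the interferon-γ site GAS (TTCNNNGAA) in 8.3%, the interferon-stimulated response element (GAAA, any 2 bases, GAAA) in 3.44% and the NF-kB consensus in 4.51%. Among the windows of the members the single match was TTTGGCGC in the Dnmt1 window shown, 34 bases after the start site. A match is a description of the letters, and the absence of one says only that these letters were not in the window.

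**Figure D1:**
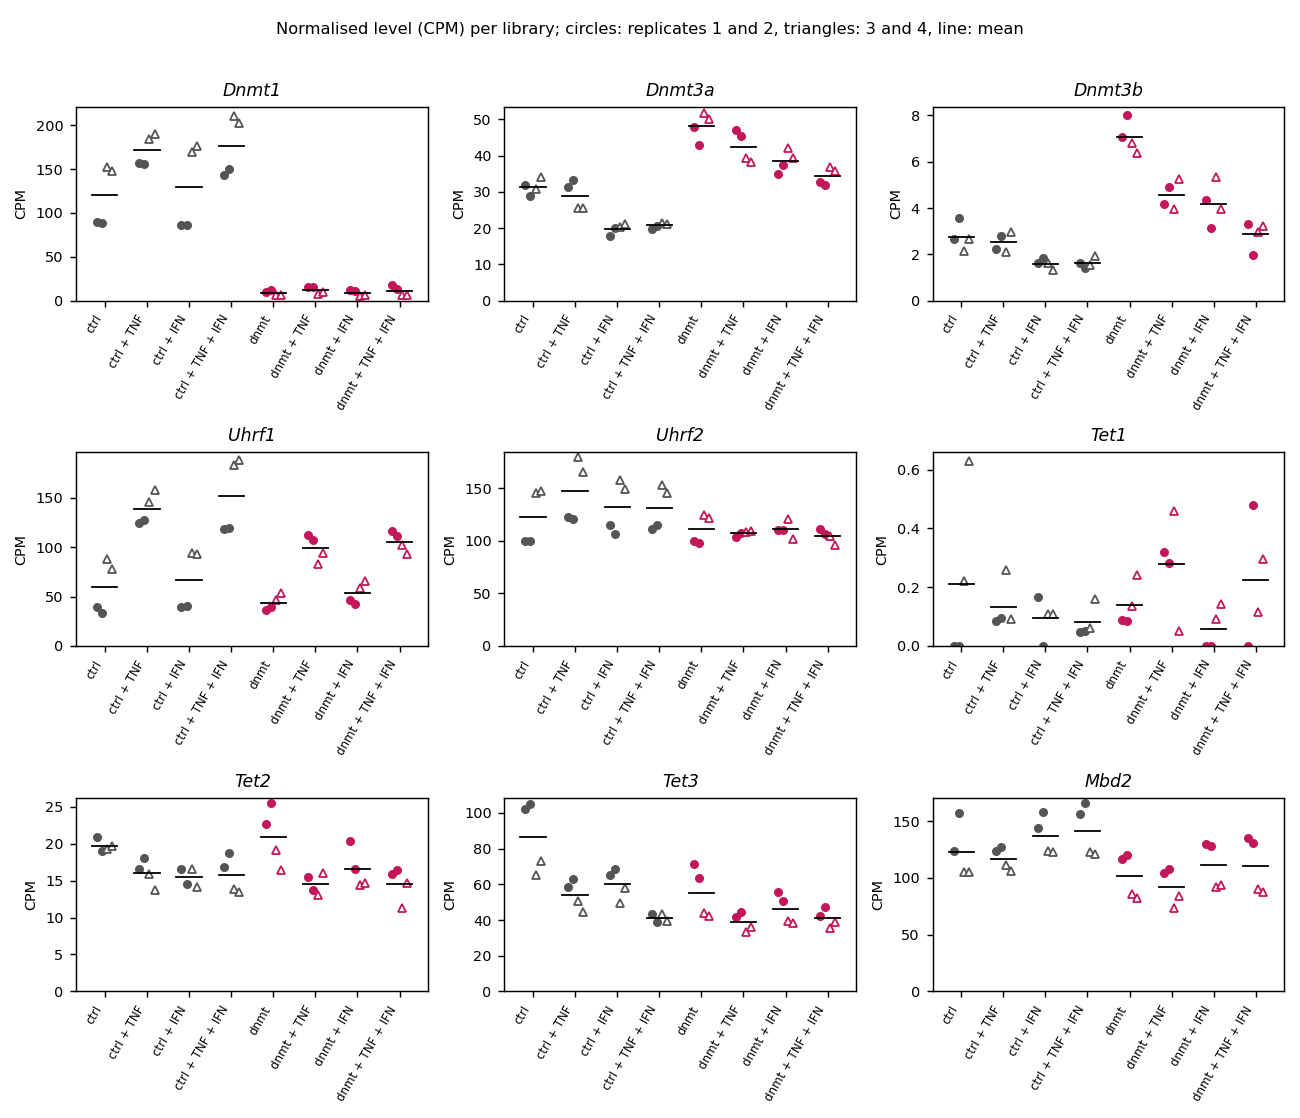
Level of each of the 9 genes (vertical axis, CPM, from 0) in each of the 32 libraries by group (horizontal axis, si-control shortened to ctrl and si-dnmt to dnmt), with circles for replicates 1 and 2, triangles for replicates 3 and 4 and a line for the mean of 4 libraries. Dnmt3a and Dnmt3b lie higher in every si-dnmt group than in its si-control counterpart, and Uhrf1 lies higher in the groups with TNF.

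Levels are compared between genes only per kilobase of exon (CPM per kb, exon lengths from GENCODE). In untreated si-control cells the order was Mbd2 at 38.2 ± 7.61 (SD, n = 4), Dnmt1 at 16.3 ± 4.79, Uhrf2 at 14.3 ± 3.11, Uhrf1 at 14.0 ± 6.40, Tet3 at 5.17 ± 1.20, Dnmt3a at 1.89 ± 0.130, Tet2 at 1.17 ± 0.0497, Dnmt3b at 0.540 ± 0.114 and Tet1 at 0.0137 ± 0.0192 CPM per kb. Dnmt1, Uhrf2 and Uhrf1 differed from each other by less than their SDs. The order of these 3 depended on the length used, since over the longest transcript Uhrf2 stood at 34.8 ± 7.56, Dnmt1 at 20.5 ± 6.02 and Uhrf1 at 16.6 ± 7.60 CPM per kb. The maintenance enzyme and its partners were more abundant as transcripts than the de novo enzymes.

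The first comparison asked what the rest of the machinery did when Dnmt1 was silenced. Dnmt1 (ENSMUSG00000004099), the target, lay between 86.5 and 211 CPM over all 16 si-control libraries and between 5.11 and 17.3 CPM over all 16 si-dnmt libraries, and its log2 fold change averaged over the 4 states was -3.91 ± 0.19 (SE, edgeR adjusted p = 1.73e-15). The remaining level differed between the replicate sets, with a mean of 11.3 CPM in replicates 1 and 2 of untreated si-dnmt cells and 6.49 CPM in replicates 3 and 4.

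Both de novo methyltransferases rose in all 4 states. Dnmt3a (ENSMUSG00000020661) had 32, 28.8, 30.9 and 34.0 CPM in the 4 si-control libraries (replicates 1 to 4, the order used throughout) and 47.8, 42.9, 51.8 and 50.0 CPM in si-dnmt. With TNF it had 31.3, 33.4, 25.6 and 25.5 CPM in si-control and 47.2, 45.4, 39.3 and 38.2 CPM in si-dnmt. With IFN it had 17.7, 20.0, 20.3 and 21.0 CPM in si-control and 34.9, 37.4, 42.0 and 39.4 CPM in si-dnmt. The combination gave 19.8, 20.7, 21.3 and 21.1 CPM in si-control and 32.6, 32, 36.8 and 35.7 CPM in si-dnmt. In each state the lowest si-dnmt library lay above the highest si-control library. On the log2 scale these rises were 0.62, 0.56, 0.96 and 0.73 from no cytokine to TNF + IFN (each ± 0.09 SE), with edgeR adjusted p of 2.32e-05, 8.30e-05, 4.10e-08 and 3.28e-06. An antisense gene, Dnmt3aos, shares 0.799% of the exon bases of Dnmt3a, and reads from that stretch could not be assigned by strand.

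Dnmt3b (ENSMUSG00000027478), which is most active in early embryos, was the rarer of the pair at 24 to 200 counts per library. It had 2.67, 3.55, 2.15 and 2.65 CPM in si-control and 7.08, 8.04, 6.83 and 6.36 CPM in si-dnmt. With TNF the values were 2.23, 2.77, 2.08 and 2.97 CPM in si-control and 4.16, 4.93, 3.97 and 5.24 CPM in si-dnmt. With IFN they were 1.63, 1.82, 1.64 and 1.30 CPM in si-control and 4.34, 3.15, 5.34 and 3.95 CPM in si-dnmt. Again no si-dnmt library overlapped its si-control group, and under TNF + IFN the gap was narrow, with 1.63, 1.41, 1.54 and 1.91 CPM in si-control against 3.32, 1.98, 2.95 and 3.21 CPM in si-dnmt. Its log2 rises were 1.36 ± 0.18, 0.86 ± 0.18, 1.39 ± 0.19 and 0.82 ± 0.19 in the order of states used for Dnmt3a, with edgeR adjusted p of 4.20e-06, 0.00103, 6.55e-06 and 0.00317. Averaged over the states, Dnmt3a rose 1.64-fold and Dnmt3b 2.16-fold.

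The maintenance readers fell in the average of the states, by less than the de novo enzymes rose. Uhrf1 (ENSMUSG00000001228) had 39.7, 33.1, 87.7 and 78.0 CPM in si-control and 35.9, 38.9, 46.8 and 53.9 CPM in si-dnmt. With TNF it had 124, 127, 145 and 158 CPM against 112, 107, 82.9 and 93.7 CPM in si-dnmt. In si-control cells replicates 3 and 4 were higher than replicates 1 and 2, and in si-dnmt cells with TNF they were lower. With IFN the values were 39.7, 40.7, 94.3 and 92.5 CPM against 46.6, 42.5, 58.6 and 65.3 CPM, and with TNF + IFN they were 118, 119, 183 and 188 CPM against 116, 111, 102 and 93.0 CPM. No single state passed the test, with log2 fold changes of -0.44, -0.49, -0.33 and -0.52 in the order above (each ± 0.27, adjusted p 0.199 to 0.438), and the average of the 4 states did, at -0.44 ± 0.14 (adjusted p = 0.00780). The fall was seen in replicates 3 and 4. Fitted alone, they gave -0.72, -0.78, -0.59 and -0.93, each past the test (adjusted p 5.02e-08 to 2.46e-05), while replicates 1 and 2 alone gave an average of -0.02 ± 0.05 (adjusted p = 0.761). With TNF the fall also passed in the fit of the compared libraries alone (-0.50, adjusted p = 0.0209). The difference between the replicate sets was itself not tested, nor was its link to the lower remaining Dnmt1 of replicates 3 and 4.

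Uhrf2 (ENSMUSG00000024817), a relative of Uhrf1 that also binds hemimethylated and hydroxymethylated DNA, showed the same split. Without cytokine it had 99.8, 100, 145 and 147 CPM in si-control and 99.8, 97.6, 125 and 122 CPM in si-dnmt. With TNF it had 123, 121, 180 and 165 CPM in si-control and 104, 107, 108 and 109 CPM in si-dnmt, which did not overlap. The IFN values were 115, 106, 158 and 149 CPM against 110, 110, 121 and 102 CPM, and the TNF + IFN values 111, 115, 153 and 145 CPM against 111, 106, 105 and 95.9 CPM. It fell with TNF, at a log2 fold change of -0.46 ± 0.15 (adjusted p = 0.0265), and in the average of the states, at -0.30 ± 0.07 (adjusted p = 0.00135). In replicates 1 and 2 alone both calls were lost, at -0.21 ± 0.08 with TNF (adjusted p = 0.0565) and -0.08 ± 0.04 in the average (adjusted p = 0.114), while replicates 3 and 4 alone gave an average of -0.49 ± 0.04 (adjusted p = 9.67e-10) and passed in each state. The differences of -0.15 without cytokine, -0.26 with IFN and -0.33 with TNF + IFN did not pass (adjusted p 0.130 to 0.538), and the last of them did with the replicate number as a block (-0.31 ± 0.10, adjusted p = 0.0246). The TNF call ended when any 1 library of si-dnmt + TNF, or replicate 3 or 4 of si-control + TNF, was left out (adjusted p 0.0514 to 0.12).

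Among the erasers, Tet3 fell in some states and Tet2 did not pass in any. Tet3 (ENSMUSG00000034832) had 102, 105, 65.3 and 73.0 CPM in si-control and 71.5, 63.5, 44.2 and 42.4 CPM in si-dnmt, and within each replicate set the si-dnmt libraries were lower. With TNF it had 58.3, 62.9, 50.5 and 44.8 CPM against 41.6, 44.4, 33.4 and 36.1 CPM, with no overlap. With IFN it had 65.1, 68.4, 49.3 and 57.7 CPM against 56.0, 50.5, 39.2 and 38.6 CPM. Under TNF + IFN both siRNAs gave alike values, 43.4, 38.9, 43.3 and 39.4 CPM against 42.1, 47.4, 35.6 and 38.7 CPM. Over the 4 states the log2 fold changes were -0.64, -0.48, -0.38 and -0.01 (each ± 0.17), and the first 2 passed, at edgeR adjusted p of 0.00784 and 0.0461 against 0.110 and 0.977. With the replicate block the IFN state also passed (-0.39 ± 0.10, adjusted p = 0.00262). Within each replicate set the first 3 states passed. The call without cytokine was lost in the fit of the compared libraries alone (-0.64 ± 0.22, adjusted p = 0.0812) and that with TNF without the low-count filter (adjusted p = 0.0644). The TNF call ended when replicate 1, 2 or 3 of si-control + TNF was left out, and likewise replicate 1, 3 or 4 of si-dnmt + TNF (adjusted p 0.0560 to 0.143).

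Tet2 (ENSMUSG00000040943), the TET enzyme most often mutated in blood cells, had 20.9, 19.0, 19.3 and 19.7 CPM in si-control and 22.7, 25.5, 19.1 and 16.4 CPM in si-dnmt. Its siRNA log2 fold changes were 0.08, -0.14, 0.09 and -0.11 from no cytokine to TNF + IFN, with an average of -0.02 ± 0.07 (adjusted p = 0.854). Tet1 (ENSMUSG00000047146), the TET enzyme of embryonic stem cells, held 0 to 14 counts per library and was not tested. It was at 0 in replicates 1 and 2 of si-control, where a count of 0 allows up to 3 counts, and its highest library was replicate 4 of the same group at 0.628 CPM.

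Mbd2 (ENSMUSG00000024513), the methyl-CpG reader, had 124, 157, 105 and 105 CPM in si-control and 117, 120, 85.7 and 82.2 CPM in si-dnmt. With TNF it had 124, 127, 111 and 106 CPM in si-control and 104, 108, 73.8 and 83.8 CPM in si-dnmt. Within each replicate set the si-dnmt libraries were lower, while the whole groups overlapped. With IFN the values were 144, 158, 124 and 123 CPM against 130, 128, 92.4 and 93.5 CPM, and with TNF + IFN they were 156, 166, 123 and 121 CPM against 135, 131, 89.8 and 87.7 CPM. The 4 differences of -0.28, -0.34, -0.30 and -0.35 (each ± 0.17) did not pass (adjusted p up to 0.282), and their average did, at -0.32 ± 0.09 (adjusted p = 0.00299). With the replicate number as a block the differences were -0.28, -0.36, -0.31 and -0.36 (each ± 0.07) and all 4 passed (adjusted p 0.000207 to 0.00239). Replicates 3 and 4 alone also passed in all 4 states (-0.46 to -0.33), and replicates 1 and 2 alone with TNF + IFN (-0.28 ± 0.09, adjusted p = 0.0332).

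**Figure D2:**
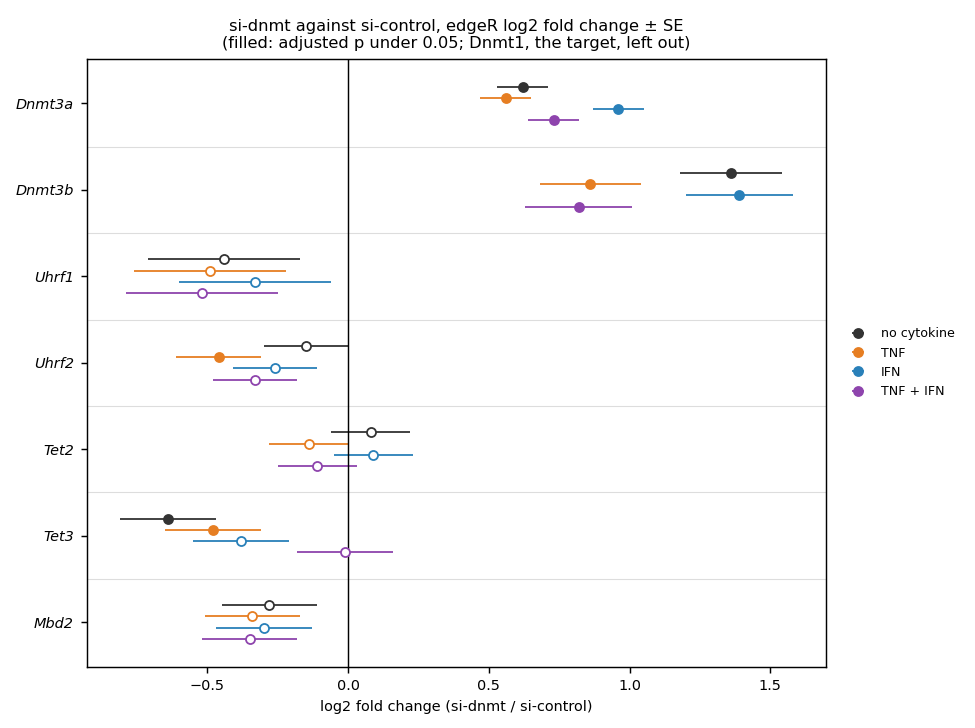
Log2 fold change of si-dnmt over si-control (horizontal axis, edgeR, ± SE) for the 7 tested genes other than the target, in each of the 4 cytokine states (colours), with filled points for an adjusted p under 0.05. Dnmt3a and Dnmt3b lie right of 0 with filled points in all 4 states, between 0.56 and 1.39, while Uhrf1, Uhrf2 and Mbd2 lie left of 0.

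Counted together, 2 of the 8 members tested rose in each state, Dnmt3a and Dnmt3b. Of all 15254 genes tested, 9.58% rose without cytokine, 10.4% with TNF, 10.8% with IFN and 8.97% with TNF + IFN. Other than Dnmt1, Tet3 fell without cytokine, Uhrf2 and Tet3 fell with TNF, and 0 fell with IFN or TNF + IFN by edgeR or DESeq2 (edgeR unadjusted p under 0.05 for Tet3 with IFN and for Uhrf2 with TNF + IFN). Of all genes, 8.88% fell without cytokine, 9.59% with TNF, 9.54% with IFN and 8.72% with TNF + IFN. In the average of the 4 states 2 members rose and 5 fell, beside 24.4% and 24.1% of all genes. The median of the 7 members other than Dnmt1 was -0.30 in that average, and the median of all genes was 0.00.

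Per kilobase, silencing changed the makeup of the DNA methyltransferase pool. In si-control cells Dnmt1 made up 86.4% ± 3.58 (SD, n = 4) of the summed Dnmt1, Dnmt3a and Dnmt3b level without cytokine, 91.2% ± 1.74 with TNF, 91.4% ± 2.94 with IFN and 93.7% ± 0.982 with TNF + IFN. In si-dnmt cells its share was 21.8% ± 5.95, 30.8% ± 6.68, 26.4% ± 9.72 and 33.8% ± 13.6 in the same order, and Dnmt3a held the largest mean share at 53.0%, 51.1%, 54.3% and 52.1%. In replicate 1 of si-dnmt + TNF + IFN Dnmt1 was the larger, at 2.34 CPM per kb against 1.96 for Dnmt3a. Over the longest transcript these were 2.95 and 3.36. The rise of the de novo enzymes was small beside the loss of Dnmt1. Their sum went from 2.43 ± 0.116 to 4.28 ± 0.123 CPM per kb without cytokine, while the sum of all 3 went from 18.7 ± 4.77 to 5.49 ± 0.316 CPM per kb. Within the de novo pair, Dnmt3b took 22.2% ± 4.47 in si-control and 32.5% ± 3.88 in si-dnmt without cytokine, and 20.3% ± 2.08 and 21.3% ± 3.48 under TNF + IFN. The TET sum, of which Tet3 was 72.3% to 80.9%, was highest in untreated si-control cells at 6.35 ± 1.20 CPM per kb, against 4.57 ± 1.06 in untreated si-dnmt cells. Under TNF + IFN it was 3.41 ± 0.178 in si-control and 3.33 ± 0.435 CPM per kb in si-dnmt.

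**Figure D3:**
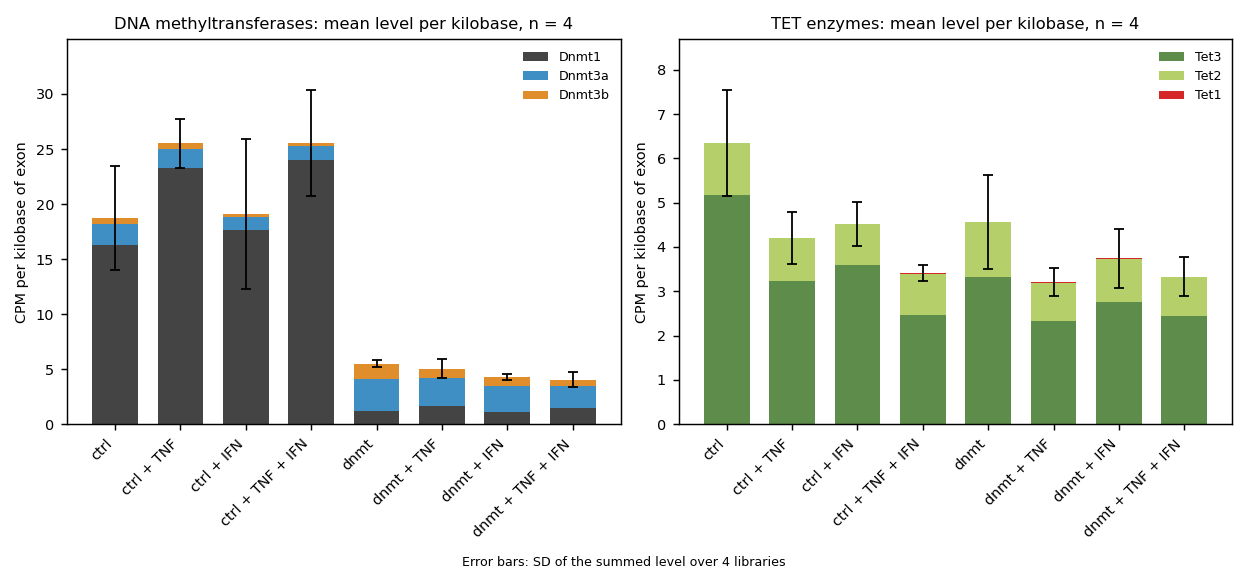
Mean level per kilobase of exon (vertical axes, CPM per kb, from 0) of the 3 DNA methyltransferases (left) and the 3 TET enzymes (right) as stacked bars for the 8 groups, with error bars of the SD of the sum over 4 libraries. The dark Dnmt1 segment fills most of each si-control bar, and in the si-dnmt bars Dnmt3a is the largest segment, while Tet1 is barely visible.

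The second set of comparisons asked what the cytokines did to the same genes under each siRNA. The 3 cytokine groups of an siRNA were compared with the same 4 untreated libraries, so their results are not independent. The de novo enzymes fell with IFN, and Uhrf1 rose with TNF. The summed endothelial markers were 6020 to 9362 CPM in si-control and 4041 to 5558 CPM in si-control + TNF, and their part in the TNF results was not tested.

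In si-control Dnmt3a fell with IFN (-0.67 ± 0.09, adjusted p = 4.29e-06), fell about as much with the combination (-0.60 ± 0.09, adjusted p = 5.87e-06), and its values with IFN, up to 21.0 CPM, lay below all untreated values, from 28.8 CPM. TNF alone gave -0.12 ± 0.09 (adjusted p = 0.365), and here the replicate sets had opposite signs, with 0.10 ± 0.10 in replicates 1 and 2 (adjusted p = 0.459) and -0.35 ± 0.09 in replicates 3 and 4 (adjusted p = 0.00345). In si-dnmt cells with TNF they gave 0.04 ± 0.10 (adjusted p = 0.811) and -0.39 ± 0.09 (adjusted p = 0.00135). In si-dnmt cells the falls were -0.32 ± 0.09 with IFN and -0.49 ± 0.09 with the combination (adjusted p of 0.0218 and 9.40e-05), again without overlap. The first of these calls ended when replicate 3 or 4 of si-dnmt, or replicate 1 or 2 of si-dnmt + IFN, was left out (adjusted p 0.0637 to 0.0979), without the low-count filter (adjusted p = 0.123) and in the compared libraries alone (adjusted p = 0.0513). Even so, the lowest si-dnmt + IFN library, at 34.9 CPM, was above the highest untreated si-control library, at 34.0 CPM.

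Dnmt3b followed Dnmt3a and also fell with TNF in si-dnmt cells. In si-control it gave -0.13 ± 0.18 with TNF (adjusted p = 0.638), and the falls with IFN and the combination were -0.78 ± 0.19 and -0.76 ± 0.19 (adjusted p of 0.00475 and 0.00182). In si-dnmt all 3 cytokine groups passed, at -0.63, -0.76 and -1.30 (each ± 0.18) with adjusted p of 0.0108, 0.00414 and 1.22e-06. In replicates 3 and 4 alone 4 of these 5 calls were lost. They gave -0.71 ± 0.29 with IFN and -0.47 ± 0.28 with the combination in si-control (adjusted p of 0.0828 and 0.170), against -0.82 and -1.0 in replicates 1 and 2. In si-dnmt they gave -0.52 with TNF and with IFN (adjusted p of 0.0679 and 0.0829), against -0.73 and -1.03. The IFN call in si-control was also lost in the compared libraries alone (adjusted p = 0.0579). Its mean in si-dnmt went from 7.08 ± 0.709 CPM (SD, n = 4) without cytokine to 2.87 ± 0.611 CPM with both, close to the 2.76 ± 0.582 CPM of untreated si-control cells.

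Dnmt1 itself did not pass in any cytokine comparison over all libraries, with log2 fold changes in si-control of 0.52 ± 0.33 with TNF, 0.11 ± 0.33 with IFN and 0.56 ± 0.33 with TNF + IFN (adjusted p 0.177 to 0.888). Within each replicate set, where the variation between the sets is left out, the TNF difference in si-control passed. Untreated si-control libraries had 90.1, 89.1, 153 and 148 CPM and those with TNF 157, 156, 185 and 190 CPM, all higher. Replicates 1 and 2 alone gave 0.82 ± 0.10 (adjusted p = 6.30e-07) and replicates 3 and 4 alone 0.31 ± 0.08 (adjusted p = 0.00332). With TNF + IFN these values were 0.73 ± 0.10 (adjusted p = 1.90e-06) and 0.46 ± 0.08 (adjusted p = 6.09e-05). In si-dnmt replicates 1 and 2 passed with TNF (0.45 ± 0.12, adjusted p = 0.00528) and TNF + IFN (0.43 ± 0.12, adjusted p = 0.00700), and replicates 3 and 4 did not (0.31 and -0.16, adjusted p of 0.0685 and 0.345).

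Uhrf1 rose with TNF under both siRNAs. In si-control the log2 rises were 1.21 with TNF and 1.35 with the combination (each ± 0.27, adjusted p of 0.00114 and 0.000196), and IFN alone gave 0.16 ± 0.27 (adjusted p = 0.784). In si-dnmt the values were 1.17 and 1.27 (adjusted p of 0.00262 and 0.000450), and 0.28 with IFN alone (adjusted p = 0.673), which passed in replicates 3 and 4 alone (0.30 ± 0.09, adjusted p = 0.0271). Every library with TNF lay above every untreated library of its siRNA. Per kilobase of exon, Uhrf1 made up 47.8% ± 6.75 of the UHRF pair in untreated si-control cells and 65.7% ± 2.67 with TNF. Over the longest transcript these shares were 31.1% and 48.4%, so which of the pair was larger depended on the length used. Uhrf2 passed in 0 of the 6 cytokine comparisons by edgeR and by DESeq2, none of which had an unadjusted p under 0.05. It passed with TNF in si-control when the replicate number was a block (0.26 ± 0.10, adjusted p = 0.0413) and within each replicate set (0.31 and 0.24, adjusted p of 0.00377 and 0.0260). With TNF + IFN the sets differed in sign in si-dnmt, at 0.14 ± 0.08 in replicates 1 and 2 (adjusted p = 0.162) and -0.30 ± 0.08 in replicates 3 and 4 (adjusted p = 0.00564), and in si-control replicates 1 and 2 passed (0.19 ± 0.08, adjusted p = 0.0461).

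Transcripts of Uhrf1 and Dnmt1 are known to be highest in S phase, so 17 S phase genes, among them the MCM helicase genes and Pcna, are given beside them. In si-control 14 of the 17 rose with TNF (median log2 fold change 0.75), 0 with IFN (median 0.05) and 16 with TNF + IFN (median 0.82), beside 16.1%, 8.56% and 23.5% of all genes. In si-dnmt 13, 0 and 15 rose, with medians of 0.68, 0.12 and 0.76, beside 11.5%, 6.66% and 21.3%. With IFN 1 S phase gene, E2f1 in si-control, had an unadjusted p under 0.05 (0.29 ± 0.13, adjusted p = 0.143), and it was singled out after its value was seen. With TNF in si-control the values were 0.75 ± 0.12 for Mcm3, a helicase subunit, and 0.81 ± 0.17 for Pcna, the replication clamp (adjusted p up to 0.000531). The silencing itself gave the list a median of -0.32 without cytokine, where 1 gene rose and 3 fell (9.58% and 8.88% of all genes). In the average of the 4 states, in which the fall of Uhrf1 was called, 2 of the 17 rose and 10 fell, with a median of -0.26, beside 24.4% and 24.1% of all genes. Of this list, Ccne1, the cyclin of S phase entry, rose in all 4 states (0.79 to 1.29), and Rrm2, a ribonucleotide reductase subunit, fell in all 4 (-0.90 to -0.78). Their part in the values of Uhrf1 and Dnmt1 was not tested.

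**Figure D4:**
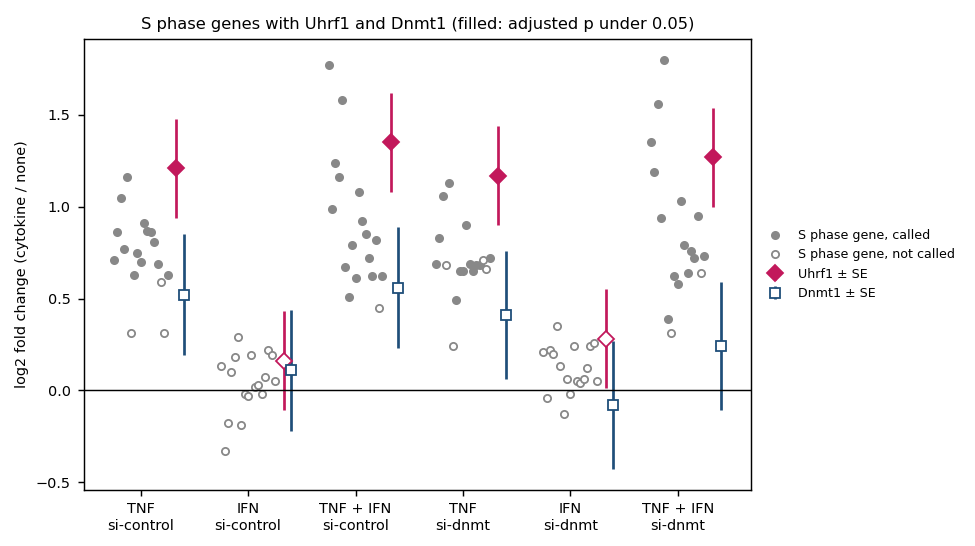
Log2 fold change of each cytokine over no cytokine (vertical axis, edgeR) for 17 S phase genes (grey circles) with Uhrf1 (diamonds) and Dnmt1 (squares, both ± SE), in si-control and si-dnmt cells, with filled symbols for an adjusted p under 0.05. The grey circles lie above 0 with TNF and TNF + IFN and around 0 with IFN, and Uhrf1 lies between 1.17 and 1.35 in the 4 comparisons that include TNF.

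Tet3 fell with each cytokine in si-control and had its lowest log2 value with both. The log2 fold changes were -0.67 with TNF, -0.52 with IFN and -1.06 with the combination (each ± 0.17), at adjusted p of 0.00306, 0.0353 and 8.40e-06. Of these groups the one with IFN overlapped the untreated libraries, and its call ended when replicate 1 or 2 of si-control, or replicate 3 or 4 of si-control + IFN, was left out (adjusted p 0.0771 to 0.146), without the low-count filter (adjusted p = 0.0548) and in the compared libraries alone (adjusted p = 0.0977). In si-dnmt the falls with TNF and the combination were -0.51 and -0.44 (each ± 0.17, adjusted p of 0.0312 and 0.0406), and IFN gave -0.27 ± 0.17 (adjusted p = 0.438). Both calls ended when replicate 1 or 2 of si-dnmt was left out. So did the first without replicate 3 or 4 of si-dnmt + TNF (adjusted p over these 4 fits 0.0741 to 0.165) and the second without replicate 1, 3 or 4 of si-dnmt + TNF + IFN (0.0620 to 0.198). In the compared libraries alone both were lost (adjusted p of 0.0702 and 0.0735), and the second also without the low-count filter (adjusted p = 0.0535) and in replicates 3 and 4 alone (-0.22 ± 0.10, adjusted p = 0.0761, against -0.59 ± 0.10 in replicates 1 and 2). With IFN replicates 1 and 2 alone passed (-0.34 ± 0.10, adjusted p = 0.0132).

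Tet2 was lower in every cytokine group and passed in si-dnmt with TNF and with the combination (both -0.52 ± 0.14, adjusted p of 0.00710 and 0.00324). The TNF call was lost in replicates 3 and 4 alone (-0.29 ± 0.14, adjusted p = 0.127), against -0.72 ± 0.13 in replicates 1 and 2 (adjusted p = 0.000148). Its values in si-dnmt were 15.5, 13.7, 13.1 and 16.0 CPM with TNF, 20.3, 16.6, 14.4 and 14.7 CPM with IFN and 15.9, 16.4, 11.3 and 14.7 CPM with TNF + IFN. Those with IFN overlapped the untreated libraries. In si-control they were 16.5, 18.1, 15.9 and 13.7 CPM with TNF, 16.6, 14.6, 16.5 and 14.1 CPM with IFN and 16.8, 18.7, 13.9 and 13.4 CPM with TNF + IFN, all below the lowest untreated library. The log2 fold changes in si-control of -0.30, -0.35 and -0.33 missed the threshold (adjusted p 0.0531 to 0.105), and all 3 passed with the replicate block (-0.30, -0.36 and -0.34, adjusted p 0.0112 to 0.0283), as did IFN in si-dnmt (-0.34 ± 0.11, adjusted p = 0.0281). In replicates 3 and 4 alone TNF and TNF + IFN in si-control passed (-0.40 and -0.51, adjusted p of 0.0231 and 0.00408), and in replicates 1 and 2 alone IFN in si-dnmt did (-0.39 ± 0.13, adjusted p = 0.0364). Leaving out si-control + TNF + IFN replicate 2 brought that comparison past the test (adjusted p = 0.0182), as did RLE size factors (adjusted p = 0.0462) and the compared libraries alone (adjusted p = 0.0484), and leaving out si-dnmt replicate 4 or si-dnmt + IFN replicate 1 did so for IFN in si-dnmt (adjusted p 0.0481 and 0.0486).

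Mbd2 did not pass in any of the 6 cytokine comparisons, with log2 fold changes of -0.13 to 0.21 (adjusted p 0.347 to 0.806). The replicate block brought TNF + IFN in si-control past the test (0.21 ± 0.07, adjusted p = 0.0122), and replicates 3 and 4 alone passed there (0.22 ± 0.08, adjusted p = 0.0201) and with IFN in si-control (0.23 ± 0.08, adjusted p = 0.0284).

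**Figure D5:**
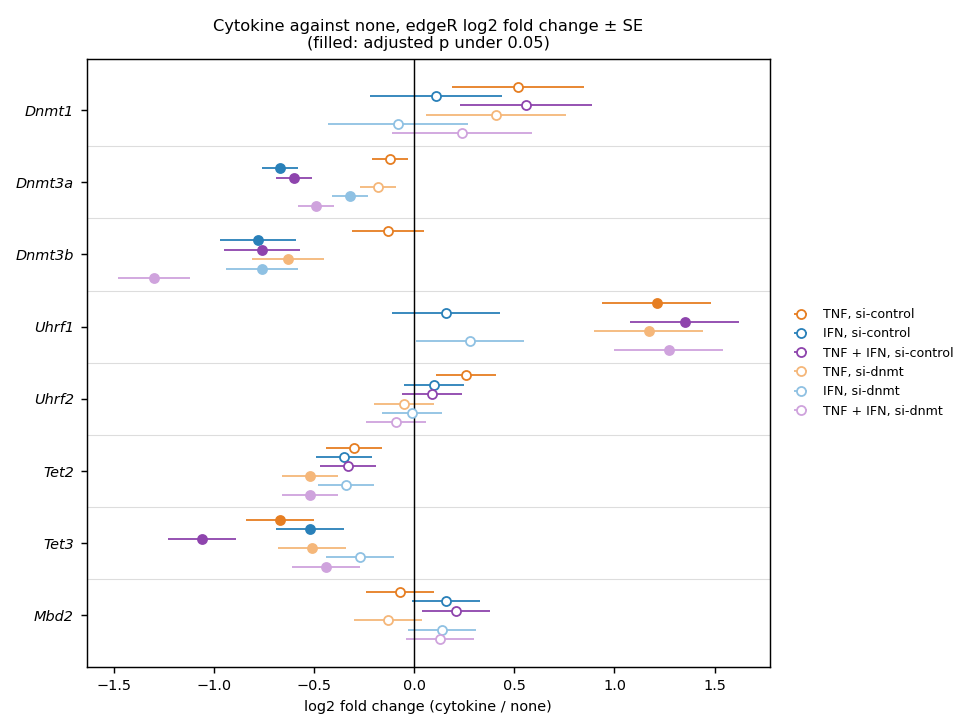
Log2 fold change of each cytokine state over no cytokine (horizontal axis, edgeR, ± SE) for the 8 tested genes, in si-control (dark colours) and si-dnmt (light colours), with filled points for an adjusted p under 0.05. Uhrf1 lies right of 0 with TNF and with TNF + IFN, from 1.17 to 1.35, and Dnmt3a and Dnmt3b lie left of 0 with IFN and with TNF + IFN.

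In si-control 1 member rose and 1 fell with TNF, beside 16.1% and 14.6% of all genes. With IFN 0 members rose and 3 fell, beside 8.56% and 5.92% (DESeq2 also called 0 higher, and none of the 8 had a positive difference with an unadjusted p under 0.05). With TNF + IFN 1 rose and 3 fell, beside 23.5% and 21.6%. In si-dnmt 1 rose and 3 fell with TNF (11.5% and 9.54% of all genes), 0 rose and 2 fell with IFN (6.66% and 2.35%, again 0 higher by DESeq2 and no positive difference at an unadjusted p under 0.05) and 1 rose and 4 fell with TNF + IFN (21.3% and 18.9%).

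Whether silencing altered a cytokine response was tested by the interaction. By edgeR 0 of the 8 members passed, and by DESeq2 0, beside 0.0328% of all genes for TNF, 0.0459% for IFN and 0.531% for TNF + IFN. An unadjusted p under 0.05 was reached by Dnmt3a with IFN (0.35 ± 0.13, unadjusted p = 0.0139, adjusted p = 1.00), Dnmt3b with TNF + IFN (-0.54 ± 0.26, unadjusted p = 0.0496, adjusted p = 0.551) and Tet3 with TNF + IFN (0.63 ± 0.24, unadjusted p = 0.0138, adjusted p = 0.341). Tet3 passed with the replicate block (0.62 ± 0.14, adjusted p = 0.00894) and within each replicate set (0.72 and 0.52, adjusted p 0.00200 and 0.0173). The fall of Tet3 with TNF + IFN was then smaller in si-dnmt than in si-control, from a lower starting level.

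The partners of the members were followed in 6 lists of 46 genes, of which 43 were tested. In the average of the 4 states 7 of the 43 rose with si-dnmt and 20 fell, beside the 24.4% and 24.1% of all genes given above. In single states 1 rose and 8 fell without cytokine, beside 9.58% and 8.88% of all genes, and 2 and 10 with TNF, beside 10.4% and 9.59%. With IFN 2 rose and 11 fell, beside 10.8% and 9.54%, and with TNF + IFN 3 and 8, beside 8.97% and 8.72%. As shares of the 43, in the same order, 2.33%, 4.65%, 4.65% and 6.98% rose and 18.6%, 23.3%, 25.6% and 18.6% fell.

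The counts of each list below are those of the average of the 4 states, in which 24.4% of all genes rose and 24.1% fell. Of 10 tested maintenance partners 0 rose and 7 fell. Dmap1, which binds Dnmt1, fell in all 4 states (-0.52 ± 0.08 in the average, adjusted p = 2.39e-06), as did the histone deacetylase Hdac2 (-0.33 ± 0.04, adjusted p = 5.94e-07). Of 7 other methyl-CpG readers 1 rose and 2 fell, and the zinc finger reader Zbtb4 fell in all 4 states (-0.44 ± 0.05, adjusted p = 1.30e-07). Of 8 NuRD genes 1 rose and 4 fell, with Gatad2b, which joins the remodeller to the part of the complex that binds Mbd2, lower in all states (-0.45 ± 0.05, adjusted p = 3.62e-08). Of 8 demethylation and repair genes 3 rose and 3 fell. Cxxc5, which binds unmethylated CpG sites, fell in all 4 states (-0.87 ± 0.12, adjusted p = 9.39e-07).

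Of 10 methyl donor and 2-oxoglutarate supply genes 2 rose and 4 fell in the average, beside 24.4% and 24.1% of all genes. The largest log2 difference with si-dnmt among the genes of these lists named here was in Mat2b, the regulatory subunit of the enzyme that makes S-adenosylmethionine, the methyl donor of all DNA methyltransferases. It lay at 58.0 to 71.7 CPM in si-control and 16.8 to 30.2 CPM in si-dnmt, and its log2 fold change was -1.48 ± 0.23, -1.53 ± 0.23, -1.45 ± 0.22 and -1.28 ± 0.22 over the 4 states (adjusted p 1.70e-05 to 0.000161). The de novo cofactor Dnmt3l was not tested, and its highest library had 0.173 CPM.

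With TNF + IFN in si-control 10 of the 43 list genes rose and 10 fell, the cytokine background being 23.5% and 21.6%.

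Genes with a pattern most like a member were ranked by the root mean square difference of their 8 centred group means of log2 CPM. For Dnmt3a they were Retreg1 (0.06), Creg1 (0.09) and Dvl3 (0.10), for Dnmt3b Prl7a1 (0.13), Cat (0.14) and Casc4 (0.17), for Uhrf1 Brca1 (0.11), Dscc1 (0.13) and Nup43 (0.13), and for Tet3 Mllt6 (0.08), Gm43071 (0.09) and 5031425E22Rik (0.09). For Dnmt1 the nearest gene, Cd28, differed by 1.06. Uhrf2, Tet2 and Mbd2 varied less between groups than the median gene and are left out.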

How the data were processed

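The authors deposited whole gene counts per library, which by their file names were made with featureCounts from trimmed reads. The submitters' processing notes also name cutadapt 4.9, FastQC 0.12.1, MultiQC 1.27.1 and DESeq2. For the aligner, genome build, annotation and strand setting, the sources used here give nothing.

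All 32 libraries were fitted in 1 model of 8 group means with edgeR 4.0.16 in R 4.3.3 (TMM factors 0.880 to 1.09, filterByExpr at a minimum count of 10, 15254 genes kept). Contrasts were tested two-sided by its quasi-likelihood F test, and p-values were adjusted by Benjamini-Hochberg over all genes tested and called at 0.05. The fit was also run on simulated counts with the same dispersion for every gene and no replicate sets. That run does not bear on the split between the sets. The replicates are described as biological. Within groups, 48 replicate pairs differed beyond sampling noise. All 112 same-numbered pairs of libraries deviated together from their group means (r 0.30 to 0.62, median 0.42), and so did other-numbered pairs of the same set (median 0.41), while pairs across sets had a median of -0.41, so a fit with the replicate number as a block is given where it changes a call. CPM are TMM-scaled, and depth limits genes of few counts. Alternatives were the block, each replicate set alone, DESeq2 1.42.0, RLE size factors, no filter, the compared libraries alone and leaving out single libraries. The members and the lists were chosen with earlier results of these data known. The text names all 9 members, the list genes called alike in all 4 siRNA contrasts and the 3 most alike genes per member, and, as examples chosen later, Mcm3, Pcna, E2f1 and marker genes.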

Additional observations from a re-analysis of the deposited data

Results flagged for a closer look

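By Dixon's criterion for 4 samples, 2 of 72 groups of values held a library far from the others, both for Tet1. With TNF in si-control, replicate 3 had 0.26 CPM (6 counts) against 2 counts in each of the other libraries. With TNF + IFN in si-control, replicate 4 had 0.159 CPM (3 counts) against 1 count in each of the others. Chance alone marks about 1 in 20 groups, and at these counts a difference was not detectable. In the fit without the replicate block no member passed the test for a different cytokine effect between the siRNAs. With the block Tet3 did, with TNF + IFN (0.62 ± 0.14, adjusted p = 0.00894).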

How the results depend on the processing

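Of 2056 values of members under the alternatives, 1951 kept their side of the threshold, 49 lost a call, 56 gained one and 0 reversed a call. Among the 1951, 114 changed sign while called in neither fit. The number of members called with si-dnmt was 4 without cytokine, 5 with TNF, 3 with IFN and 3 with TNF + IFN. In replicates 3 and 4 alone it was 7 without cytokine, 7 with IFN and 6 with TNF + IFN, and with the replicate block it was 5 with IFN and 5 with TNF + IFN. The share of all genes called under the alternatives was not computed, so the counts of members in this section have no background there. Leaving out single libraries gave 3 to 4 with TNF. In that range, Uhrf2 and Tet3 lost their calls. In replicates 1 and 2 alone Dnmt3b missed the threshold with TNF + IFN (0.79 ± 0.30, adjusted p = 0.0598). For TNF in si-control, 2 members were called, 4 with the block, 4 in replicates 1 and 2 alone and 6 in replicates 3 and 4 alone. For IFN in si-control 3 became 1 (Dnmt3a) in the fit of the compared libraries alone. For IFN in si-dnmt 2 became 4 in replicates 1 and 2 alone, 1 without the low-count filter, 1 in the compared libraries alone and 1 to 2 when single libraries were left out. For the interaction with TNF 0 became 1 (Uhrf2) in replicates 3 and 4 alone, and for that with TNF + IFN 0 became 1 with the block, 1 in replicates 1 and 2 alone and 2 in replicates 3 and 4 alone, Tet3 each time and Dnmt1 in the last. Pathway genes lower with si-dnmt numbered 8, 10, 11 and 8 over the states, and 19, 22, 22 and 21 in replicates 3 and 4 alone. Without the filter they numbered 3, 6 and 6 in the first 3 states. For replicates 3 and 4 alone and without the filter, the share of all genes called lower was not computed. DESeq2 called the same members as edgeR in all 14 contrasts. The block changed no other call of a member beside those given. The causes were not tested. Dnmt3b, at 24 to 200 counts per library, and Tet1, at 0 to 14, are limited by depth.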
